A study of Mus musculus with 13 samples.

Results

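Apol11b, Btnl10 and Trim10 are 3 little-studied mouse genes that stood among the largest rises with age in cartilage of the jaw joint, and they were taken by symbol from a table of 18748 genes. All 3 were present and all 3 had enough counts to be tested. They were selected on the difference between aged and young libraries, so that difference is given below as a description with no test. The choice by rise did not use how each gene varies between libraries of 1 age, its relatives and genomic neighbours, or what its promoter holds. The members and the gene lists were, however, chosen with earlier results of these data known. The tests of relations below are therefore not fully independent of the choice.

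Messenger RNA came from the mandibular condylar cartilage, the cartilage on the head of the lower jaw at the temporomandibular joint, of mice at 2 months (7 libraries, here young) and at 18 months (6 libraries, here aged). The labels name no strain, sex, genotype or treatment, and they do not say whether a library is 1 mouse. The p-values therefore measure only the spread between these libraries, which may be technical. Deposited counts summed to between 16356839 and 18203443 per library. Of 10 chondrocyte markers all were detected, with Col2a1, the main cartilage collagen, at 5110 ± 946 FPKM in the 7 young libraries and 1600 ± 715 FPKM in the 6 aged ones (SD). FPKM is the deposited level per length of transcript and per depth of library, and it is the scale used here to set genes beside each other. CPM values, counts per library total, scaled between libraries by TMM, are used for fold changes and for relations across libraries.

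Trim10, also called Herf1, is a RING finger protein of the tripartite motif family that takes part in the last steps of red cell formation. Btnl10 is a member of the butyrophilin-like family, membrane proteins with immunoglobulin domains, and its relative Ermap is a red cell membrane protein. Apol11b belongs to the apolipoprotein L family, a cluster of related genes whose functions in the mouse are little known. Slc4a1 encodes band 3, the anion exchanger of the red cell membrane, and serves here as the red cell gene that the members are compared with. Red cells are made in bone marrow, where GATA1 and KLF1 switch on red cell genes through GATA and CACCC letters in their promoters and enhancers.

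The promoters are shown because the 3 genes tended to rise and fall together across libraries of the same age, as given below. This did not hold throughout. The relation of Apol11b with Btnl10 did not pass in aged libraries (r = 0.64), and relations between members in young libraries rested on a few of them. Whether the promoters have a part in these relations was not tested. Each is the 250 bases before the first RefSeq start in the table of build GRCm38.p6 (the deposited data used GRCm39), 5′ to 3′ on the gene's strand. Capitals mark the GATA letters searched on either strand, AGATAA or AGATAG and likewise TGATAA or TGATAG. Apol11b lies at chr15:77643287-77643536 on the minus strand, Btnl10 at chr11:58917658-58917907 on the plus strand and Trim10 at chr17:36869324-36869573 on the plus strand.
Apol11b: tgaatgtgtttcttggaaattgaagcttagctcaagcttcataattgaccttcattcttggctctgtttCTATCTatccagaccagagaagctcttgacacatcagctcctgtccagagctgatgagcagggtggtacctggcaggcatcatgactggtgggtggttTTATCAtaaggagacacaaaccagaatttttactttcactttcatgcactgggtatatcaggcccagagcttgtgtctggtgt
Btnl10: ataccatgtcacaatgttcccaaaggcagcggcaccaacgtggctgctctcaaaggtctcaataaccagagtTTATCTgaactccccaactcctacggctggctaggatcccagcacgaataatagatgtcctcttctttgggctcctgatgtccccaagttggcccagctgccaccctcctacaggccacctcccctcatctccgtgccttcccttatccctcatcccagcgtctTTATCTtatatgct
Trim10: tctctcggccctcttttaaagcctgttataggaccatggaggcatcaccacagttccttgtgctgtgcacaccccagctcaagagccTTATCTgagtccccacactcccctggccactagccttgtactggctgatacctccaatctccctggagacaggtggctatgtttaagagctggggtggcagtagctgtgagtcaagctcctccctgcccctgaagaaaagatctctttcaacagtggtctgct

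All 3 windows held GATA letters, on the strand opposite to the gene. Apol11b and Btnl10 had 2 matches each, and the match of Btnl10 nearest to its start lay 14 to 9 bases before it. The single match of Trim10 lay 163 to 158 bases before its start. The same letters stood in 27.1% of 27025 RefSeq promoters of this length, 1 per gene, in 20.1% of the 14671 that belong to genes with deposited values, and in 52.8% of the 36 that belong to the lists of red cell membrane, red cell regulator and globin or haem genes. CACCC, on either strand, also stood in all 3 windows, and in 51.3%, 57.0% and 72.2% of these sets of promoters. CAGNTG, the E-box letters that TAL1 complexes can bind, stood in the windows of Btnl10 and Trim10, not in that of Apol11b, and in 44.5%, 40.7% and 44.4% of the same sets. No GATA match overlapped a match of the other motifs. Btnl10 has a second start in the table, and the single GATA match in the window of that start, 163 to 158 bases before it, is the same site as the match nearest to the first start. These matches are letters in a window and not measured binding.

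Trim10 had the highest level of the 3 genes. In young libraries 1 to 7 it stood at 3.75, 0.83, 1.49, 1.62, 5.5, 1.06 and 0.92 FPKM, and in aged libraries 1 to 6 at 51.23, 23.15, 9.83, 41.47, 26.8 and 45.23 FPKM. Young libraries 1 and 5 were the highest of their age, aged library 3 was the lowest of its age, and the ages did not overlap. The means were 2.17 ± 1.78 FPKM (SD, n = 7) and 33.0 ± 15.7 FPKM (SD, n = 6), and the fitted log2 fold change was 3.72 ± 0.48 (SE), a 13.2-fold rise that ranked 21 among 14067 tested genes.

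Apol11b showed the largest rise of the 3 genes, with rank 5. Its levels in young libraries 1 to 7 were 1.39, 0.36, 0.42, 0.42, 1.93, 0.94 and 0.19 FPKM, and in aged libraries 1 to 6 they were 26.23, 19.74, 5.73, 20.26, 19.91 and 22.02 FPKM. All aged values but 1 lay between 19.74 and 26.23 FPKM, and library 3 lay below them, still 2.97 times the highest young library. The means were 0.807 ± 0.645 FPKM (SD, n = 7) and 19.0 ± 6.93 FPKM (SD, n = 6), with a fitted log2 fold change of 4.34 ± 0.44 (SE). Its lowest library, young 7, held 6 counts (exact 95% Poisson interval 2.2 to 13.1, counting error only), so differences among the low young libraries are coarse.

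Btnl10 had the lowest level of the 3 genes. Young libraries 1 to 7 gave 1.41, 0.27, 0.14, 0.42, 1.31, 0.39 and 0.31 FPKM, and aged libraries 1 to 6 gave 19.58, 5.61, 6.19, 13.66, 11.51 and 16.49 FPKM. Here aged libraries 2 and 3 were both low, at less than any other aged library, and the ages again did not overlap. Means of 0.607 ± 0.523 FPKM (SD, n = 7) and 12.2 ± 5.57 FPKM (SD, n = 6) went with a fitted log2 fold change of 3.92 ± 0.49 (SE) and rank 10. Slc4a1, for scale, went from 8.69 ± 7.62 to 147 ± 73.1 FPKM, a log2 fold change of 3.87 ± 0.54 (SE) with rank 11.

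**Figure D1:**
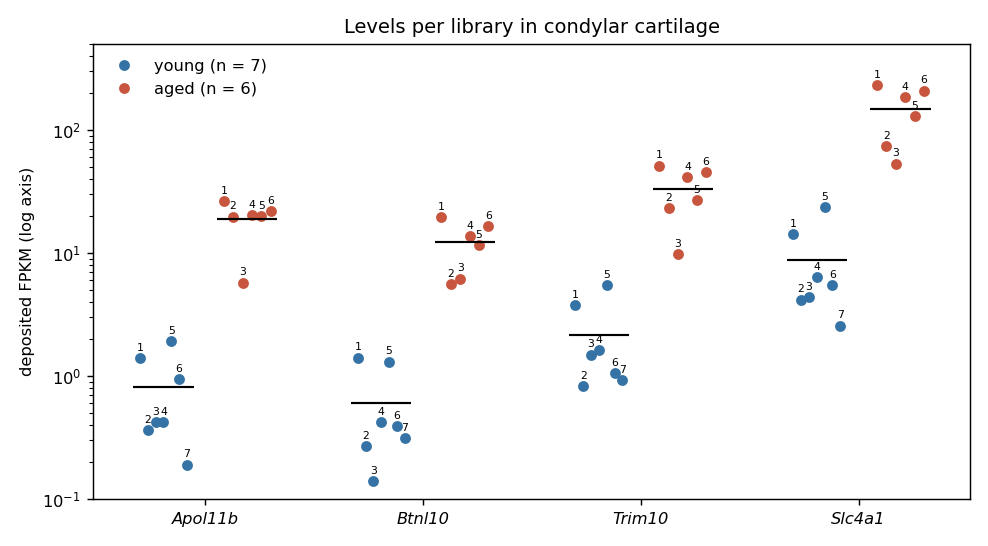
Deposited FPKM (log axis) of Apol11b, Btnl10, Trim10 and Slc4a1 in each library, with the replicate number above each point and a line at the mean of 7 young (blue) and 6 aged (red) libraries. Young libraries 1 and 5 sit above the other young libraries for all 4 genes, and every aged library sits above every young one.

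By edgeR's quasi-likelihood test (adjusted p under 0.05) 24.7% of tested genes were called higher in aged libraries and 21.6% lower, and 8.28% had every aged library above every young one (19.2% had no overlap in either direction). The 3 members are among the genes called higher and among those without overlap because they were chosen for their rise. With library sizes alone in place of TMM the split of all calls moved from 3471 higher and 3033 lower to 7034 and 1253, and with limma on log2(FPKM + 1) to 6250 and 1361. Over all tested genes the median log2 fold change moved from 0.014 to 0.244 with library sizes alone, and the members moved with it, to 4.57 for Apol11b, 4.15 for Btnl10 and 3.94 for Trim10. Without young libraries 1 and 5 the young means were 1.18 ± 0.351 FPKM for Trim10, 0.466 ± 0.281 for Apol11b and 0.306 ± 0.111 for Btnl10 (SD, n = 5), and the log2 fold changes were larger, at 4.57, 5.11 and 4.88.

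The order of levels was Trim10, Apol11b, Btnl10 by the mean of either age, but neighbours in that order overlapped within an age. In each of the 13 libraries Trim10 was nevertheless above Apol11b and Btnl10. Among young libraries Apol11b and Btnl10 differed by less than their spread (0.807 and 0.607 FPKM), and in young libraries 1 and 7 Btnl10 was the higher of the 2. Relative to the mean, the spread between young libraries was large, with a coefficient of variation of 80.0% for Apol11b, 86.1% for Btnl10, 82.0% for Trim10 and 87.7% for Slc4a1. In aged libraries it was 36.5%, 45.7%, 47.5% and 49.7%.

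Btnl10 had a further difference between libraries in the deposited values. Count and FPKM together imply the transcript length that the authors' quantification used in each library. For Btnl10 this length ran from 3029 to 4069 bases in young and from 3013 to 3783 bases in aged libraries, a range of 1056 bases over all 13. It ranged over 113 bases for Trim10, 100 for Apol11b and 86 for Slc4a1. The mean length for Btnl10 was 3731 ± 397 bases in young and 3263 ± 285 bases in aged libraries (SD). The ratio of mean aged to mean young FPKM of Btnl10 (20.1) stood against a fitted fold in counts of 15.1. These were 15.2 and 13.2 for Trim10, 23.5 and 20.3 for Apol11b, and 16.9 and 14.6 for Slc4a1. The fitted folds carry the TMM scaling and the FPKM ratios do not. How much of the gap for Btnl10 goes with scaling or with length was not tested.

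Within each age the members rose and fell with Slc4a1 across libraries. Pearson's r on log2 CPM in the 7 young libraries was 0.95 for Trim10 (two-sided exact permutation p = 0.00496, adjusted 0.0298), 0.93 for Apol11b (exact p = 0.00179, adjusted 0.0134) and 0.91 for Btnl10 (exact p = 0.00813, adjusted 0.0357). In the 6 aged libraries r was 0.95 for Trim10 and 0.78 for Apol11b (exact p = 0.00139 for both, the smallest that 6 libraries allow, adjusted 0.0134) and 0.97 for Btnl10 (exact p = 0.0125, adjusted 0.0357). The adjustment covers 30 relations, those with Slc4a1, between members, and with neutrophil, B cell and skeletal muscle scores, and 15 of them passed. None of these 30 relations was pooled over the ages, which form separate groups of libraries. Values given below over all 13 libraries had the mean of each age taken out and were not tested. Spearman's rho in young libraries was 0.93 for Trim10 (exact permutation p = 0.00675, adjusted 0.0506) and 0.89 for both Apol11b and Btnl10 (exact p = 0.0123, adjusted 0.0615), all short of the threshold. In aged libraries rho was 1.0 for Trim10 and Apol11b (exact permutation p = 0.00278, adjusted 0.0278), so both ranked the 6 libraries exactly as Slc4a1 did, and 0.89 for Btnl10 (exact p = 0.0333, adjusted 0.0731).

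The young relations rested on libraries 1 and 5. Without these, the farthest from the median of Slc4a1, r fell to 0.53 for Trim10 (exact permutation p = 0.408), 0.76 for Apol11b (exact p = 0.175) and 0.54 for Btnl10 (exact p = 0.35) in the 5 that remained. Without aged libraries 2 and 3, r in the other 4 was 1.0 for Trim10 (exact permutation p = 0.0417, the smallest that 4 libraries allow), 0.76 for Apol11b (exact p = 0.292) and 0.94 for Btnl10 (exact p = 0.125). Among young libraries, leaving out 1 library at a time moved r less. For Apol11b in aged libraries it moved r more, from 0.784 to 0.965 without library 2 alone. In young libraries r without library 5 was 0.884 for Apol11b, 0.864 for Btnl10 and 0.882 for Trim10 (adjusted exact permutation p = 0.0644, 0.103 and 0.0868). Without young library 1 it was 0.897 for Btnl10 and 0.934 for Trim10 (adjusted exact p = 0.0833 and 0.0868), and without young library 2 it was 0.907 for Btnl10 (adjusted exact p = 0.059). In aged libraries some adjusted p-values also rose above 0.05 while r stayed as high or nearly so. Without library 3, r was 0.813 for Apol11b and 0.958 for Trim10 (adjusted exact permutation p = 0.173 and 0.0625). The same held for Btnl10 without aged library 1, 3, 4, 5 or 6, where r was 0.964 to 0.984 (adjusted exact permutation p = 0.0833, 0.075, 0.0682, 0.15 and 0.0577). With 5 libraries the smallest exact permutation p is 0.00833 before adjustment over 30 relations, so these aged values do not show that a single library carried the relation.

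**Figure D2:**
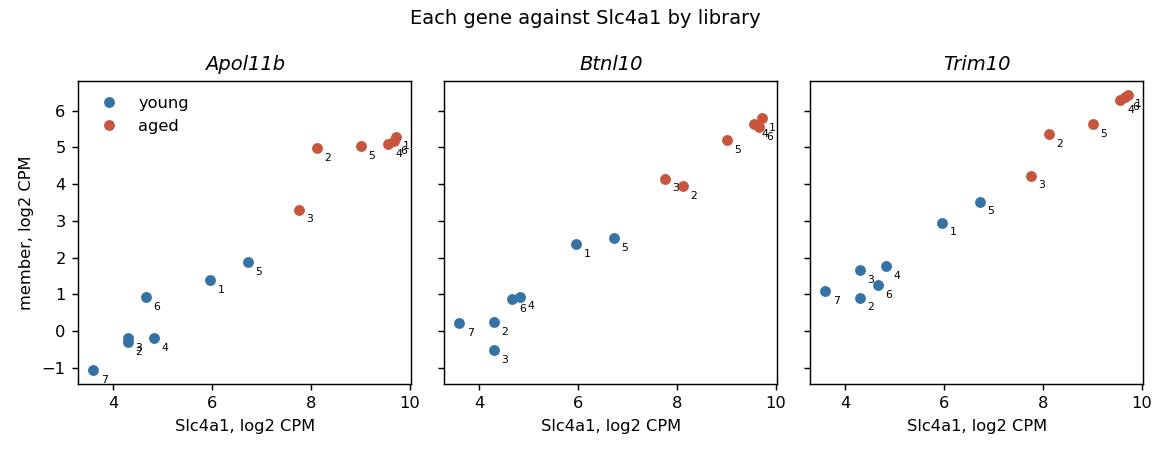
TMM-normalised log2 CPM of each gene (vertical axis) against Slc4a1 (horizontal axis) in 7 young (blue) and 6 aged (red) libraries, numbered by replicate. Within both ages the points rise with Slc4a1, and young libraries 1 and 5 lie apart from the other young libraries, while aged library 2 lies high for Apol11b.

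The level of each gene as a share of Slc4a1 in the same library showed where they departed from it. Trim10 stood at 26.3 ± 6.50% of Slc4a1 FPKM over 7 young and 22.8 ± 4.47% over 6 aged libraries (SD), and Btnl10 at 7.28 ± 2.92% and 8.64 ± 1.56%. Apol11b stood at 9.61 ± 3.48% and 14.3 ± 6.39%, and its aged values were 11.4, 26.8, 10.7, 10.9, 15.3 and 10.5% in libraries 1 to 6. Among aged libraries, library 2 had the highest share for Apol11b and, at 31.4%, also for Trim10, but not for Btnl10 (7.62%). For all 3 genes the aged range overlapped the young range, which for Apol11b was 6.64 to 17.1%. These shares use the same contrast that chose the genes and were not tested. After the mean of each age was taken out, log2 CPM of the members changed by 0.84 (Apol11b), 0.95 (Btnl10) and 0.90 (Trim10) for each unit of log2 CPM of Slc4a1 over the 13 libraries.

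**Figure D3:**
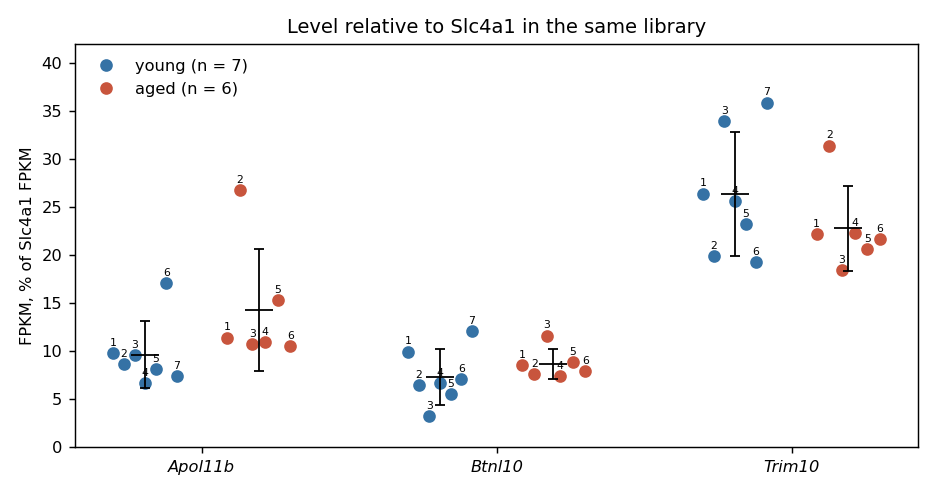
FPKM of each gene as a percentage of Slc4a1 FPKM in the same library, with replicate numbers, and mean and SD over 7 young (blue) and 6 aged (red) libraries. Trim10 lies between 18.4 and 35.9% and Btnl10 between 3.2 and 12.1%, while Apol11b has 1 aged library, replicate 2, at 26.8%.

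Between the members themselves 5 of 6 relations passed. Trim10 and Apol11b had r = 0.83 in young (exact permutation p = 0.0226, adjusted 0.046) and 0.91 in aged libraries (exact p = 0.00139, adjusted 0.0134). Trim10 and Btnl10 had r = 0.86 in both ages (exact permutation p = 0.023 and 0.0111, adjusted 0.046 and 0.0357). Apol11b and Btnl10 had r = 0.85 in young (exact permutation p = 0.0155, adjusted 0.0357) and 0.64 in aged libraries (exact p = 0.122, adjusted 0.204). Without young libraries 1 and 5 the young values were 0.16, 0.00 and 0.43 in the same order, so these young relations rest on those libraries. By Spearman's rho 1 of the 6 passed, Trim10 with Apol11b in aged libraries (rho = 1.0, exact permutation p = 0.00278, adjusted 0.0278).

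Scores of neutrophils, B cells and skeletal muscle were set against the members in the same way. Megakaryocyte and platelet, macrophage and chondrocyte markers were not scored. In aged libraries Apol11b also followed the B cell score, the mean log2 CPM of 9 markers (r = 0.98, exact permutation p = 0.00972, adjusted 0.0357), and the neutrophil score of 14 markers (r = 0.87, exact p = 0.0139, adjusted 0.0357). Trim10 did likewise (r = 0.91 and 0.93, exact permutation p = 0.0153 and adjusted 0.0357 for both). Btnl10 had r = 0.62 and 0.66 with the B cell and neutrophil scores (exact permutation p = 0.151 and 0.14), which did not pass. Without aged libraries 1 and 3, r of the B cell score was 0.31 for Apol11b and 0.46 for Trim10, and without 3 and 6 that of the neutrophil score was 0.74 and 0.72. By rank none of these 4 relations passed (rho from 0.89 to 0.94, adjusted exact permutation p from 0.0625 to 0.0731). In young libraries no member passed with the neutrophil or B cell score (r from −0.11 to 0.56). With the skeletal muscle score of 10 markers r ran from −0.73 to −0.17 over both ages, and none of the 6 relations passed. Whether the relation with Slc4a1 differs from those with the other scores was not tested.

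The genes whose pattern was most like each member were ranked by Pearson's r over the 13 libraries after the mean of each age was taken out. The ranking covered 12490 other tested genes with a mean of at least 1 FPKM. Predicted genes, with symbols of Gm plus digits or ending in Rik, were left out. This is a description over libraries that share a scaling. For Btnl10 they were Klf1, the red cell transcription factor (r = 0.986), Hemgn (0.978), the blood group protein Kel (0.966), the claudin Cldn13 (0.958) and Ermap (0.956), with Slc4a1 at rank 12. For Trim10 they were Epb42, a partner of band 3 under the red cell membrane (0.978), Alas2, the first enzyme of haem synthesis in red cells (0.963), Slc4a1 (0.948), Tspo2 (0.948) and Rhd (0.942). For Apol11b they included Ahsp, the chaperone of alpha globin (0.914), Cnot9 (0.911), Rhag (0.891) and Slc4a1 (0.882). Cnot9, a subunit of the CCR4-NOT complex that shortens mRNA tails, was the exception in age difference, at 12.2 FPKM in young and 13.7 in aged libraries (log2 fold change −0.04), while the other named genes had log2 fold changes from 3.36 to 3.87. The members were less like one another, with Trim10 at rank 11 for Apol11b and 38 for Btnl10, and Btnl10 at rank 54 for Apol11b. Their lowest counts in a young library were 28 for Trim10, 6 for Apol11b and 10 for Btnl10, against 196 for Slc4a1. The part of counting error in these ranks was not tested.

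Red cell genes as a whole were higher in aged libraries. The counts of called genes below stand beside 24.7% called higher and 21.6% called lower over all tested genes. Of the red cell membrane list 17 of 18 rose and 1, Cd59a, fell (median log2 fold change 3.25), of the red cell regulators 13 of 14 rose (2.50), and of the globin and haem genes 16 of 16 rose (2.17), against a median of 0.014 over all tested genes. The summed FPKM of these lists ran from 241 to 386, 108 to 157 and 1280 to 4930 in young and from 539 to 1060, 249 to 497 and 5230 to 46500 in aged libraries. In young libraries much of the membrane sum was Aqp1, with a mean of 218 FPKM against 331 in aged ones (log2 fold change 0.39). Much of the young regulator sum was Ldb1, at 57.4 against 66.7 FPKM (−0.02). These sums therefore weigh toward genes with little change. In bulk tissue more cells of a type and more RNA per cell cannot be told apart. All 9 megakaryocyte and platelet markers rose (median 3.09), with summed FPKM of 35.7 to 94.5 in young and 67.2 to 675 in aged libraries. Of the neutrophil markers 11 of 14 rose and 1 fell (median 1.54, summed FPKM 2710 to 5990 and 2980 to 17200), and of the skeletal muscle markers 8 of 10 rose (2.17, 481 to 4060 and 3850 to 13600). The B cell markers had 1 of 9 called, Pax5, which was lower (median −0.85, summed FPKM 117 to 274 in young and 22.2 to 211 in aged libraries), and with library sizes alone or RLE scaling none was called. Igll1 was the only marker of these lists at 0 in any library, in 1 aged library. Macrophage markers split, with 4 of 8 higher and 2 lower (5 and 0 with library sizes alone), and summed FPKM of 270 to 384 and 231 to 401. Of the 10 chondrocyte markers 2 rose and 6 fell (3 and 5 with library sizes alone), with summed FPKM of 6300 to 9100 in young and 4280 to 8350 in aged libraries. The part of any of these cell types in the members' levels was not tested.

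Of the relatives of Apol11b some rose and others were not called. The table held 12 apolipoprotein L genes, of which 9 were tested. Besides Apol11b 4 of 8 rose and none fell, where 24.7% of all tested genes were called higher and 21.6% lower. Apol11a (5.67 ± 0.45, SE, edgeR adjusted p = 5.97e-07) and Apol10a (4.98 ± 0.50, SE, adjusted p = 3.75e-06) had larger log2 fold changes than Apol11b, at ranks 1 and 3 of all tested genes. They were low, with 12 and 9 counts over all young libraries and 638 and 298.58 over all aged ones, so their fold changes depend on the model's handling of near-empty libraries. Apol8 rose by 3.65 ± 0.46 (SE, edgeR adjusted p = 2.98e-05), from 0.419 ± 0.324 to 6.11 ± 2.94 FPKM, and Apol6 by 0.55 ± 0.20 (adjusted p = 0.0352). Apol10b (0.84, edgeR adjusted p = 0.0705), Apol7e (0.38), Apol9b (0.19) and Apol9a (−0.05) did not pass. With library sizes alone Apol10b passed (1.08, adjusted p = 0.0183) and Apol9a stood at 0.18. With the mean of each age taken out, r with Slc4a1 over the 13 libraries was 0.94 for Apol8, 0.67 for Apol10a, 0.57 for Apol11a and −0.37 for Apol6. Apol7a, Apol7b and Apol7c had too few counts to be tested, each below 0.3 FPKM on average in both ages.

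Several of these relatives are also neighbours of Apol11b on chromosome 15. Of the 6 nearest protein-coding genes in RefSeq order, 3 on each side, Apol11a and Apol8 rose, while Apol10b and Apol7e, directly beside Apol11b, and Apol9b were not called and Apol7c was not tested. Reads can be shared between such relatives. Of the runs of 100 bases in GENCODE M21 transcripts of Apol11b, 3.38% also occurred in transcripts of Apol10a or Apol11a, and no run of Btnl10 or Trim10 occurred in another gene. No exon of the 3 genes overlapped an exon of another gene on either strand in that annotation.

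The table held 10 butyrophilin genes, and 3 of these were tested. Ermap rose by 3.72 ± 0.49 (SE, edgeR adjusted p = 4.95e-05), from 1.68 ± 1.38 to 26.8 ± 12.1 FPKM, and stood at r = 0.98 with Slc4a1 over the 13 libraries after age means were taken out. Btnl9 was not called (0.07 ± 0.12, SE, edgeR adjusted p = 0.665). Btn1a1, Btn2a2, Btnl1, Btnl2, Btnl4, Btnl6 and Mog were near absent, the highest of them Btnl2 at 0.308 FPKM in aged libraries. Around Btnl10 on chromosome 11, 5 of the 6 nearest protein-coding genes were tested and none was called. Over all tested genes 46.2% were called in either direction. H2bu2, with 17 counts over all young and 75 over all aged libraries, was too low to test. The genes directly beside it, Zfp39 and Rnf187, had log2 fold changes of 0.26 and 0.05 (edgeR adjusted p = 0.12 and 0.401).

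Of the Trim genes 46 of 65 were tested, with a median log2 fold change of 0.15. Besides Trim10, 11 of 45 rose and 11 fell, near the shares over all tested genes (24.7% higher and 21.6% lower). With library sizes alone 27 of the 46 rose and none fell, against 7034 higher and 1253 lower of all 14067 tested genes. Trim58, a ubiquitin ligase of maturing red cells, rose by 3.8 ± 0.44 (SE, edgeR adjusted p = 1.49e-05), from 0.267 ± 0.165 to 4.35 ± 2.20 FPKM, slightly above Trim10 in fold and below it in level. The next largest rises were Trim55 and Trim54, which are muscle proteins, at 2.42 ± 0.50 and 2.35 ± 0.52 (SE, edgeR adjusted p = 0.00146 and 0.00254). The largest falls were small, at −0.38 for Trim62, −0.36 for Trim2 and −0.33 for Trim32 (edgeR adjusted p = 0.0237, 0.0123 and 0.00325), and none was called with library sizes alone. Trim10 lies on chromosome 17 in a cluster of its own family, where Trim15 (10 counts over all young and 15 over all aged libraries), Trim31 (0 and 2) and Trim40 (0 in all 13 libraries) were too low to test. Trim26, also in that cluster, fell by 0.15 on the log2 scale (edgeR adjusted p = 0.0453), and was not called with RLE scaling (−0.15, edgeR adjusted p = 0.0567) or with library sizes alone (0.08, adjusted p = 0.317). Rnf39, the outermost neighbour on the other side, had 26 and 114 counts and was not tested.

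**Figure D4:**
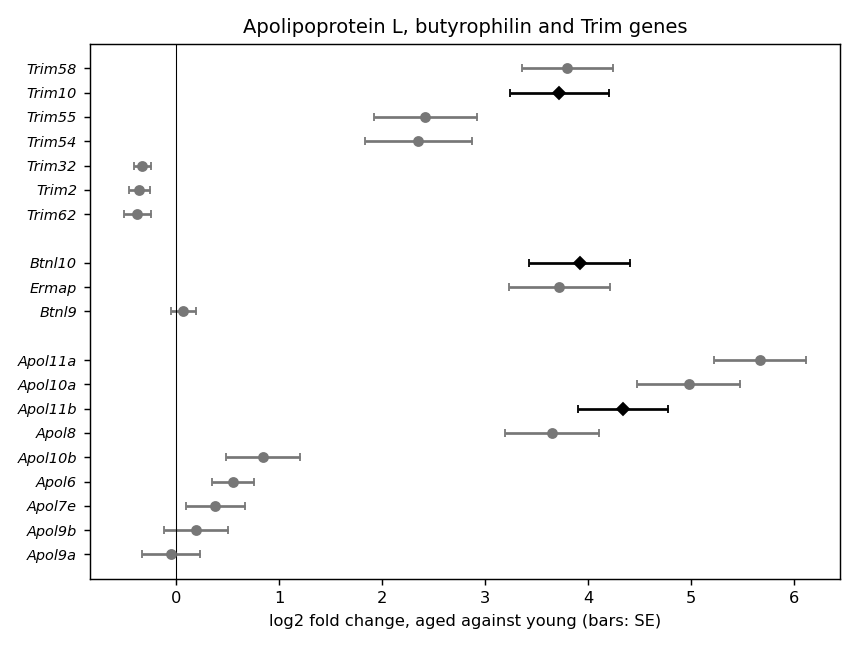
Log2 fold change, aged against young, with SE from edgeR for tested apolipoprotein L genes, butyrophilin genes and the Trim genes with the largest rises and falls, all over 13 libraries. Black diamonds are Apol11b, Btnl10 and Trim10, and the other genes are grey circles, of which Apol11a, Apol10a, Apol8, Ermap and Trim58 lie above 3.6.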

How the data were processed

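Messenger RNA of 13 libraries was captured on oligo(dT) beads and read in pairs with strand kept on a DNBSEQ instrument, per the labels' protocols. Per the submitters' processing notes, which give no roles, build GRCm39 was used with RSEM 1.3.1, DESeq2 1.4.5, HISAT2 2.1.0 and Bowtie2 2.3.4.3. The annotation, and whether counting used strand, are not given in the sources used here. The authors deposited expected counts (5.3% of values not whole), FPKM and TPM per gene, per the file headers.

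After rounding, expected counts were fitted with edgeR 4.0.16 under R 4.3.3 (filterByExpr with minimum count 10 and total 15, TMM, robust quasi-likelihood fit, Benjamini-Hochberg adjustment, threshold 0.05), which kept 14067 genes. Log2 CPM used a prior count of 2. Relations within an age used exact permutation over all orders. Named genes were the members, Slc4a1, the 5 most alike genes per member, list members, the 3 largest Trim changes each way and 3 neighbours on each side. A gene that this rule names is not reported here. The members and lists were chosen with earlier results of these data known. Alternatives were other filters and scalings, DESeq2 1.42.0, limma 3.58.1 on log2(FPKM + 1) and log2(FPKM + 0.1), log2(TPM + 1), a prior count of 0.5, a replicate block and left-out libraries. Of the gene IDs, 18609 were in the RefSeq table of GRCm38.p6. No duplicate library was found (smallest chi-square per degree of freedom 9.87). The scripts were tested on simulated counts.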

Additional observations from a re-analysis of the deposited data

Results flagged for a closer look

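Aged library 3 stood apart for Apol11b, at 5.73 FPKM against 19.74 FPKM in the next lowest aged library, a gap larger than Dixon's 95% critical value for 6 samples. The 8 groups looked at were the 3 members and Slc4a1 in each age, and chance marks about 1 in 20 such groups.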

How the results depend on the processing

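The direction of the 3 members and the count of genes called held under all 22 alternatives to each (for the count, within 1.5 times). The members were chosen for a large rise in these libraries, so their direction is no independent check. The split of the count into higher and lower genes did move with library sizes alone and with limma, as given above. The fold was smaller with limma on log2(FPKM + 1), where the log2 fold changes were 3.421 for Apol11b, 2.971 for Btnl10 and 3.411 for Trim10, a scale that understates low genes. Leaving out 1 library gave 4.174 to 4.717, 3.747 to 4.28 and 3.574 to 4.141 in the same order. The setting without both young libraries 1 and 5 was chosen after seeing the data.

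Correlations with Slc4a1 in young libraries depended on the measure and on libraries 1 and 5. Spearman's rho missed the threshold in young libraries for Apol11b (0.893), Btnl10 (0.893) and Trim10 (0.929) and in aged ones for Btnl10 (0.886), and the cause was not tested. Without the 2 libraries farthest in Slc4a1 r was 0.755, 0.536 and 0.531 in young and 0.756, 0.941 and 0.998 in aged libraries for Apol11b, Btnl10 and Trim10, and the 4 aged libraries left could hardly pass at any r, since their smallest exact permutation p is 0.0417 before adjustment. Without 1 library at a time, r ran in young libraries from 0.884 to 0.986, 0.864 to 0.969 and 0.882 to 0.962, and in aged ones from 0.756 to 0.965, 0.964 to 0.993 and 0.944 to 1.0. Scaling, log2(TPM + 1) and the prior count changed no call of these.

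Replicate numbers showed no clear pairing of the libraries. The correlation of deviations ran from −0.12 to 0.258 over 6 pairs, and 2 of 6 aged libraries were most like the young library of their own number. So few pairs cannot exclude a pairing. With the replicate block the log2 fold changes were 4.233, 3.92 and 3.664, and 5789 genes were called against 6504. Low counts limit the young libraries most, down to 6 counts for Apol11b.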
